A study of Bos taurus with 170 samples.

Results

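Low-activation Day 3 bovine embryos were compared with Day 2 embryos to find which transcripts differed before the broad rise of the embryo's own transcripts. The low-activation embryos were chosen by a measured value, the summed level of 20 genes that the study lists as transcribed by the embryo and not stored in the oocyte. Day 3 embryos with less than 600 CPM of these 20 genes (UMI per 1000000 gene UMI of the embryo) were taken, and 3 of the 8 Day 3 embryos met the rule, namely Day3-E1, Day3-E3 and Day3-E5. They held 47 of the 161 cells kept, the 6 Day 2 embryos held 43, and the other 5 Day 3 embryos held 71. The 20 genes were left out of every result that follows.

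The series profiled single blastomeres of Bos taurus embryos made by in vitro maturation and fertilization of oocytes from slaughterhouse ovaries, and GEO labels Day 2 embryos as 8-cell and Day 3 embryos as 16-cell stage. All embryos were untreated and cultured alike in oviductal fluid medium, and the labels set the groups apart by age and stage. The title of each cell ends in p1, p2 or p3, which is read here as the plate and could mark another kind of batch. Day3-E1 and Day3-E3 were on plate 1, which held no Day 2 embryo, and Day3-E5 was on plate 3 with Day2-E1 to Day2-E4, while Day2-E5 and Day2-E6 were on plate 2. For Day3-E1 and Day3-E3, plate and group therefore cannot be told apart. The study picked embryos by the timing of their cleavages, and parents of the embryos were not given, so embryos may be related. Each cell was sequenced by SCRB-Seq, which tags each captured transcript with a random UMI (a molecular identifier) before PCR, and the tags rather than the reads are counted.

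The early mammalian embryo runs on RNA and protein that the oocyte laid down, and these stores are degraded while the embryonic genome is switched on. In cattle the main wave of activation falls at the stages sampled here, after a minor wave in earlier cleavages. Among the earliest embryonic products of several mammals are components of transcription, splicing and translation, which are needed before tissue-specific programmes start. KLF4 is a zinc finger transcription factor of pluripotent cells.

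The low-activation embryos were shallower than the Day 2 embryos, and the embryos differed in the cell barcodes they shared. The median UMI per cell was 45252.5 in Day3-E1, 23773.5 in Day3-E3 and 22301 in Day3-E5, and 54423 to 115331 in the Day 2 embryos, so the groups did not overlap (exact two-sided permutation test over embryos, p = 0.0238, the smallest value this design allows). Summed over cells, the low-activation embryos held 381911 to 600185 gene UMI and the Day 2 embryos 438899 to 920192. The cell barcode of 14 of the 17 cells of Day3-E5 was also used by a Day 2 embryo, whereas this held for 0 of 14 cells of Day3-E1 and 1 of 16 cells of Day3-E3. Gene UMI per ERCC spike-in UMI was 64.8 to 71.7 in the Day 2 embryos, 70.5 in Day3-E1, 67.9 in Day3-E3 and 40.2 in Day3-E5 (exact two-sided permutation test of the log2 ratio, p = 0.476). The part of depth, plate and shared barcodes in the results below was not tested beyond the alternatives given. A single cell of Day3-E3 stood apart, with 4177 gene UMI and 1366 ERCC UMI, and without it 447 genes were called in the comparison below in place of 448. In summed counts, fewer molecules per cell and fewer cells that express a gene cannot be told apart.

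The values that chose the embryos graded among them and are given as a description. The summed level of the 20 genes was 130 CPM in Day3-E1, 296 in Day3-E5 and 429 in Day3-E3, the embryo just inside the limit. The Day 2 embryos ranged from 88.3 to 165, so that Day3-E1 lay inside their range and the other 2 above it. Just outside the limit was Day3-E6 with 872 CPM, and the remaining Day 3 embryos had 1002 to 2132.

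KLF4 rose in the low-activation embryos. Its level was 207 CPM in Day3-E1, 1147 in Day3-E3 and 671 in Day3-E5, against a lowest value of 68.5, a median of 92.7 and a highest value of 99.8 in the Day 2 embryos. All 3 lay above all 6 Day 2 embryos, and Day3-E1 was nearest to them. On the log2 scale, where 1 is a doubling, the rise was 3.01 with a standard error of 0.45. The Benjamini-Hochberg adjusted p of edgeR (quasi-likelihood fit) was 0.00526, and adjusted p-values below are of the same kind. The other Day 3 embryos, side by side, had 1319 to 2340 CPM.

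**Figure D1:**
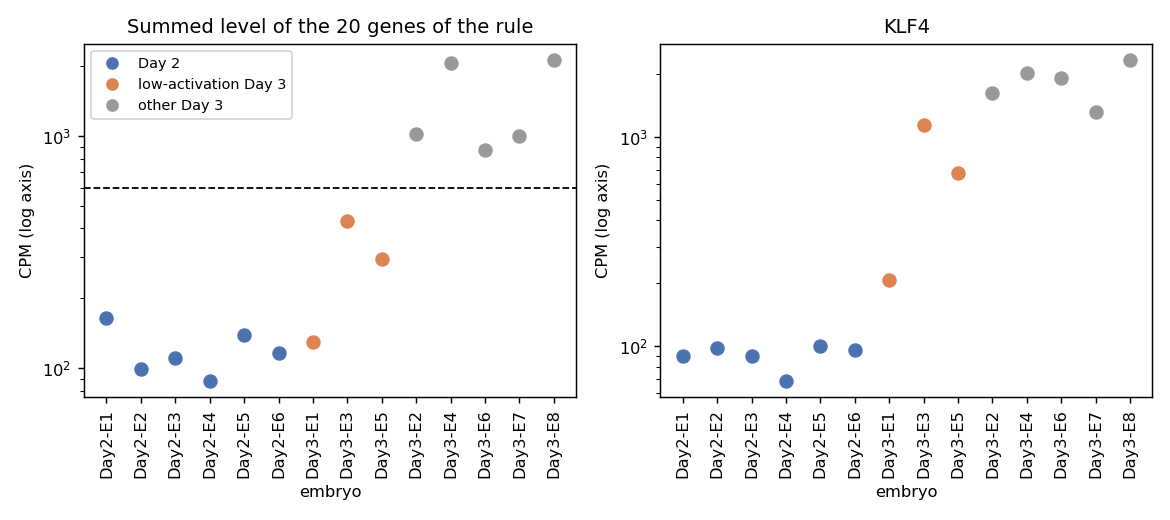
Each point is an embryo, with the level in CPM on a log axis; the left panel shows the summed level of the 20 genes of the rule with the 600 CPM limit as a dashed line, and the right panel shows KLF4. The 3 low-activation embryos (orange) lie below the line in the left panel, and in the right panel between 207 and 1147 CPM, above every Day 2 embryo (blue) and below every other Day 3 embryo (grey).

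Of 5919 genes that passed the filter on low counts, 331 were higher and 117 lower in the low-activation embryos than in the Day 2 embryos at an adjusted p under 0.05, which is 5.59% and 1.98% of the genes tested and 7.57% in both directions. Rises were larger than falls. The called rises had a median log2 fold change of 1.31, and 210 of them exceeded 2-fold, 82 exceeded 4-fold and 25 exceeded 8-fold. The called falls had a median of -0.82, with 29 beyond 2-fold, 2 beyond 4-fold and 0 beyond 8-fold. The median over all genes tested was 0.01. All 3 embryos lay outside the range of the 6 Day 2 embryos on the side of the call for 326 of the 448 called genes, of which 211 were rises and 115 falls, while 12% of all genes tested had the 3 embryos outside on the same side. When the ERCC UMI replaced the gene UMI as library size, the all-gene median moved to -0.30 and the split became 154 higher and 179 lower, and without TMM scaling it was 275 higher and 235 lower. Day3-E5, whose spike-in ratio differed, weighed on the count: without it, 199 genes were higher and 52 lower. For comparison, the other 5 Day 3 embryos against the same 6 Day 2 embryos gave 1494 higher (28.3%) and 1360 lower (25.7%) of 5288 genes tested.

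**Figure D2:**
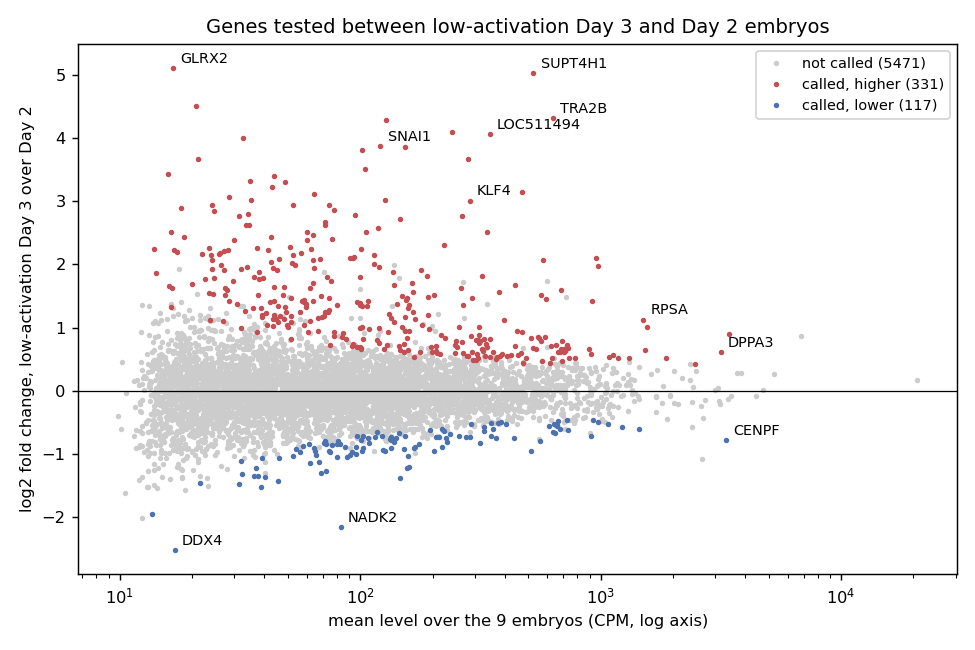
Each point is 1 of the 5919 genes tested, with its mean level over the 9 embryos in CPM (log axis) and the log2 fold change of low-activation Day 3 over Day 2; red and blue points were called higher (331) and lower (117). Called rises reach above 5 on the log2 scale (GLRX2, SUPT4H1) at low and high levels, while the called falls go beyond -2 only for DDX4 and NADK2.

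The 3 embryos were not alike in these genes. Among the 331 called rises, Day3-E3 was the highest of the 3 for 202 genes, Day3-E5 for 115 and Day3-E1 for 14, and Day3-E1 was the lowest for 261. Among the 117 called falls, Day3-E5 was the lowest for 71, Day3-E3 for 34 and Day3-E1 for 12. Since these embryos took part in the calls, the counts describe them and test nothing further.

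The largest rises among genes whose groups did not overlap and whose mean reached 20 CPM in the higher group were led by GLRX2, a mitochondrial glutaredoxin, which had 5 UMI in all Day 2 embryos together and 59 in the low-activation embryos. Its level was 20.0 CPM in Day3-E1, 94.3 in Day3-E3 and 28.6 in Day3-E5, against 0 to 2.56 (median 1.09) on Day 2 (log2 fold change 5.11, standard error 0.67, adjusted p = 6.61e-05). The gene next in size was abundant. SUPT4H1, the small subunit of the elongation factor DSIF, had 528 CPM in Day3-E1, 1016 in Day3-E3 and 2893 in Day3-E5, against 18.3 to 79.7 (median 46.9) on Day 2. It rose by 5.03 on the log2 scale (standard error 0.58, adjusted p = 0.00225). Here Day3-E5 and not Day3-E3 was the highest, and the other Day 3 embryos spanned 604 to 3310 CPM, which overlaps the low-activation embryos.

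RNA-binding and splicing proteins made up 4 of the 15 largest rises, a grouping made after the values were seen. TRA2B, an activator of exon inclusion, had 353 CPM in Day3-E1, 3501 in Day3-E3 and 1292 in Day3-E5, against 77.6 to 105 (median 96.1) on Day 2 (log2 fold change 4.32, standard error 0.61, adjusted p = 0.00545). The Day3-E3 value lay within the 2821 to 4902 CPM of the other Day 3 embryos, the Day3-E1 and Day3-E5 values below it. SRSF3, a serine/arginine-rich splicing factor, had 163, 841 and 918 CPM in Day3-E1, Day3-E3 and Day3-E5, against 34.8 to 44.9 on Day 2 (log2 fold change 4.10, standard error 0.49, adjusted p = 0.00214). RSRP1, which also carries arginine/serine repeats, had 160, 463 and 416 CPM against 13.67 to 22.8 (4.28, standard error 0.30, adjusted p = 1.93e-07). HNRNPAB, an RNA-binding protein of the hnRNP class, had 75.0, 605 and 520 CPM against 21.8 to 32.1 (3.86, standard error 0.58, adjusted p = 0.00557). For these 4 genes Day3-E1 was the lowest of the 3 embryos, and that it lay above every Day 2 embryo was required by the rule that chose them.

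A further group of the largest rises encodes transcription factors and surface proteins. SNAI1, a zinc finger repressor known from epithelial-mesenchymal transition, had 185 CPM in Day3-E1, 131 in Day3-E3 and 637 in Day3-E5, against 10.87 to 38.7 on Day 2 (log2 fold change 3.88, standard error 0.54, adjusted p = 0.00369). ZNF296, a zinc finger gene, had 172, 202 and 426 CPM against 8.55 to 34.2 (3.81, standard error 0.32, adjusted p = 1.07e-06). TFAP2C, a factor of the trophectoderm, had 43.3, 487 and 263 CPM against 18.5 to 31.9 (3.51, standard error 0.64, adjusted p = 0.0132), so that Day3-E1 stood only just above Day 2. Without Day3-E5 the log2 fold change was 3.498 and the call ended (adjusted p = 0.0715). SLC2A3, the glucose transporter GLUT3, had 185, 1087 and 894 CPM against 41.1 to 74.8 (3.67, standard error 0.49, adjusted p = 0.00369). PDGFRA, a growth factor receptor, rose at lower levels, from 0 to 9.11 CPM on Day 2 to 16.66, 107 and 39.0 CPM.

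The remaining members of the 15 were LOC511494, ANKRD50, CKMT2 and IL18. LOC511494, for which the files give no other name, was nearly as high in Day3-E1 (631 CPM) as in Day3-E3 (665) and reached 1466 in Day3-E5, against 39.6 to 80.6 on Day 2 (log2 fold change 4.06, standard error 0.26, adjusted p = 3.75e-07). CKMT2, the mitochondrial creatine kinase of striated muscle, had 33.3, 20.9 and 120 CPM in Day3-E1, Day3-E3 and Day3-E5, against 0 to 3.96 (4.50, standard error 0.57, adjusted p = 3.99e-05). ANKRD50, an ankyrin repeat protein of endosomal recycling, and IL18, a cytokine, had log2 fold changes of 4.00 and 3.43. Both were lowest in Day3-E1, with 33.3 and 21.7 CPM, above the Day 2 highs of 11.52 and 7.92.

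**Figure D3:**
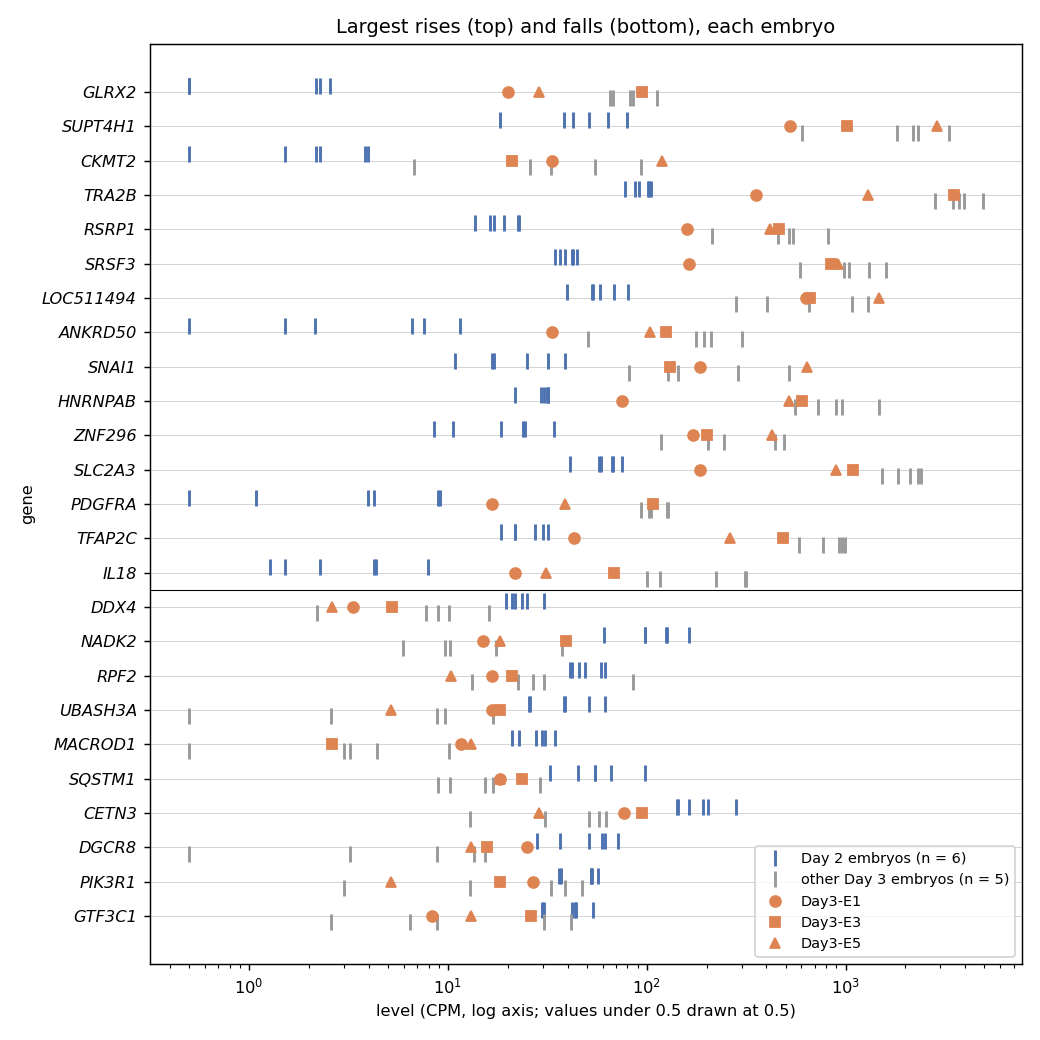
Levels in CPM (log axis) of the 15 largest rises and 10 largest falls, with a tick for each Day 2 embryo (blue) and each other Day 3 embryo (grey) and an orange symbol for each low-activation embryo. As the rule that chose the genes required, the symbols lie to the right of all blue ticks in the upper block and to the left in the lower. For SUPT4H1, LOC511494 and SNAI1, among others, the symbols overlap the grey ticks.

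The falls chosen by the same rule were led by DDX4, the germ line RNA helicase VASA, and NADK2, the mitochondrial NAD kinase. DDX4 had 3.33 CPM in Day3-E1, 5.24 in Day3-E3 and 2.599 in Day3-E5, against 19.6 to 30.4 (median 22.6) on Day 2 (log2 fold change -2.52, standard error 0.51, adjusted p = 0.00376). This rests on 5 UMI in the low-activation embryos and 93 in the Day 2 embryos. NADK2 had 14.995, 39.3 and 18.2 CPM against 60.9 to 164 (median 112) (log2 fold change -2.15, standard error 0.37, adjusted p = 0.00121). That all 3 embryos lay below every Day 2 embryo in both genes was required by the rule that chose them. Day3-E1 was not the highest of the 3 in either gene.

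The other 8 of the 10 largest falls had log2 fold changes between -1.52 and -1.32. They were RPF2, which assembles the large ribosomal subunit, UBASH3A, a regulator of T cell receptor signalling, MACROD1, an ADP-ribose hydrolase, SQSTM1, the autophagy receptor p62, CETN3, a centrin of the centrosome, DGCR8, the partner of Drosha in microRNA processing, PIK3R1, a regulatory subunit of PI3-kinase, and GTF3C1, a subunit of the RNA polymerase III factor TFIIIC. CETN3 was the most abundant of them, with 76.6 CPM in Day3-E1, 94.3 in Day3-E3 and 28.6 in Day3-E5 against 142 to 282 on Day 2 (-1.38, standard error 0.31, adjusted p = 0.00919). RPF2 had 16.66, 20.9 and 10.397 CPM against 41.3 to 62.0 (-1.52, standard error 0.34, adjusted p = 0.00621), while the other Day 3 embryos ran from 13.15 to 85.0. Several of these calls were close to the threshold. Without Day3-E5 the calls of UBASH3A (adjusted p = 0.128), MACROD1 (0.0513), SQSTM1 (0.0564), DGCR8 (0.0928), PIK3R1 (0.121) and GTF3C1 (0.111) were lost by the same test. The log2 fold changes there were -1.72 for MACROD1, -1.26 for GTF3C1, -1.397 for SQSTM1, -1.20 for DGCR8, -1.16 for UBASH3A and -0.98 for PIK3R1. Among the list members described below, FBXW12, NFYA, NOP10, CKS2, CCNE1, AURKC, NDUFA2, PSMB3, CBX5, GART, PNP and LDHC also lost their calls without Day3-E5, with adjusted p from 0.0504 to 0.139. Losses were not confined to Day3-E5. With each low-activation embryo left out in turn, 40 values of named genes no longer passed the threshold and 203 kept their side of it. With each Day 2 embryo left out in turn, 32 no longer passed it and 445 kept their side.

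Genes of RNA production were read by lists chosen with earlier results of these data known. Of 61 splicing genes tested, 15 were called higher (24.6%) and 0 lower, beside 5.59% higher and 1.98% lower over all genes tested. The median was 0.26 on the log2 scale, beside 0.01 over all genes tested. PRPF19, a core ubiquitin ligase of the spliceosome, had 172, 238 and 359 CPM in Day3-E1, Day3-E3 and Day3-E5, against 79.7 to 113 on Day 2 (log2 fold change 1.4999, standard error 0.20, adjusted p = 6.61e-05). SNRPC of the U1 particle and HNRNPK had log2 fold changes of 1.35 and 1.44, again with Day3-E1 lowest, at 260 and 140 CPM. The summed level of the splicing list was 17793 CPM in Day3-E1 (Day 2 embryos 16147 to 18496, so inside their range), and 26784 in Day3-E3 and 21366 in Day3-E5. TRA2B alone held 353, 3501 and 1292 CPM of these sums, and 46 of the 61 genes were not called.

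Of 44 genes of the transcription machinery, 6 were called higher and 0 lower (median log2 fold change 0.17). Besides SUPT4H1 they included GTF2H1, a subunit of TFIIH, with 91.6, 178 and 109 CPM against 32.0 to 70.4 on Day 2 (1.46, standard error 0.26, adjusted p = 0.00132). CDK9, the kinase of P-TEFb, had 238, 257 and 335 CPM against 102 to 184 (0.98, standard error 0.19, adjusted p = 0.00225), and POLR2B, a large subunit of RNA polymerase II, had 51.7, 220 and 138 CPM against 32.1 to 48.7 (1.79, standard error 0.33, adjusted p = 0.00304). With ERCC library sizes the call of CDK9 was lost. The summed level of the list was 8907, 9678 and 11944 CPM in Day3-E1, Day3-E3 and Day3-E5, all above the Day 2 range of 7570 to 8369, and SUPT4H1 alone held 528, 1016 and 2893 CPM of these sums.

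Genes of translation were called in the direction of a rise, though most were not called. Of 75 cytosolic ribosomal protein genes tested, 18 were called higher (24%) and 0 lower, with a median of 0.44 on the log2 scale. Among all genes tested, 5.59% were called higher and 1.98% lower. RPSA, a protein of the small ribosomal subunit, had 1968 CPM in Day3-E1, 2728 in Day3-E3 and 2131 in Day3-E5, against 878 to 1265 (median 1134) on Day 2 (1.12, standard error 0.14, adjusted p = 1.77e-05). RPLP0, of the ribosomal stalk, had 603, 683 and 626 CPM against 307 to 410 (0.94, standard error 0.14, adjusted p = 0.000163). These 2 genes stood at much the same level in all 3 embryos, unlike most rises. The calls of RPLP0 and RPL4 were lost with ERCC library sizes. RPL36AL, at a low level, rose most among the 4 members named, with 51.7, 162 and 172 CPM against 16.64 to 59.2 (2.25, standard error 0.39, adjusted p = 0.00283), and here Day3-E1 lay inside the Day 2 range. Summed over the list, Day3-E1 had 21727 CPM, Day3-E3 26909 and Day3-E5 30830, against 17020 to 21492 on Day 2 and 36412 to 74282 in the other Day 3 embryos. Ribosomal protein genes have many near-identical pseudogenes, and how reads with several matches were counted is not given in the sources used here.

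Of 41 translation factors, 8 were called higher (19.5%) and 0 lower (median log2 fold change 0.20). The shares among all genes tested were 5.59% and 1.98%. ETF1, the release factor, had 61.6, 175 and 182 CPM in Day3-E1, Day3-E3 and Day3-E5 against 32.1 to 50.2 on Day 2 (1.74, standard error 0.29, adjusted p = 0.000773). EEF2, which moves the ribosome along the mRNA, EIF1, an initiation factor, and PABPC4, a poly(A)-binding protein, rose by less, with log2 fold changes of 0.89, 0.64 and 0.61, and lost their calls with ERCC library sizes. Of 48 ribosome biogenesis genes, 5 were called higher and 0 lower, with a median of 0.10. TAF1D, a factor of RNA polymerase I, had 71.6, 134 and 112 CPM against 6.84 to 14.08 (3.23, standard error 0.29, adjusted p = 3.75e-07), far above Day 2 in all 3 embryos. NOL11 rose with a log2 fold change of 2.28, whereas NOP10 (1.39) overlapped Day 2 through Day3-E1, and NOP56 (0.95) was highest in Day3-E3, with 348 CPM. In the mitochondrial ribosome, 1 of 66 genes was called, MRPL17 (1.63, adjusted p = 0.00369), and the median was -0.00016.

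**Figure D4:**
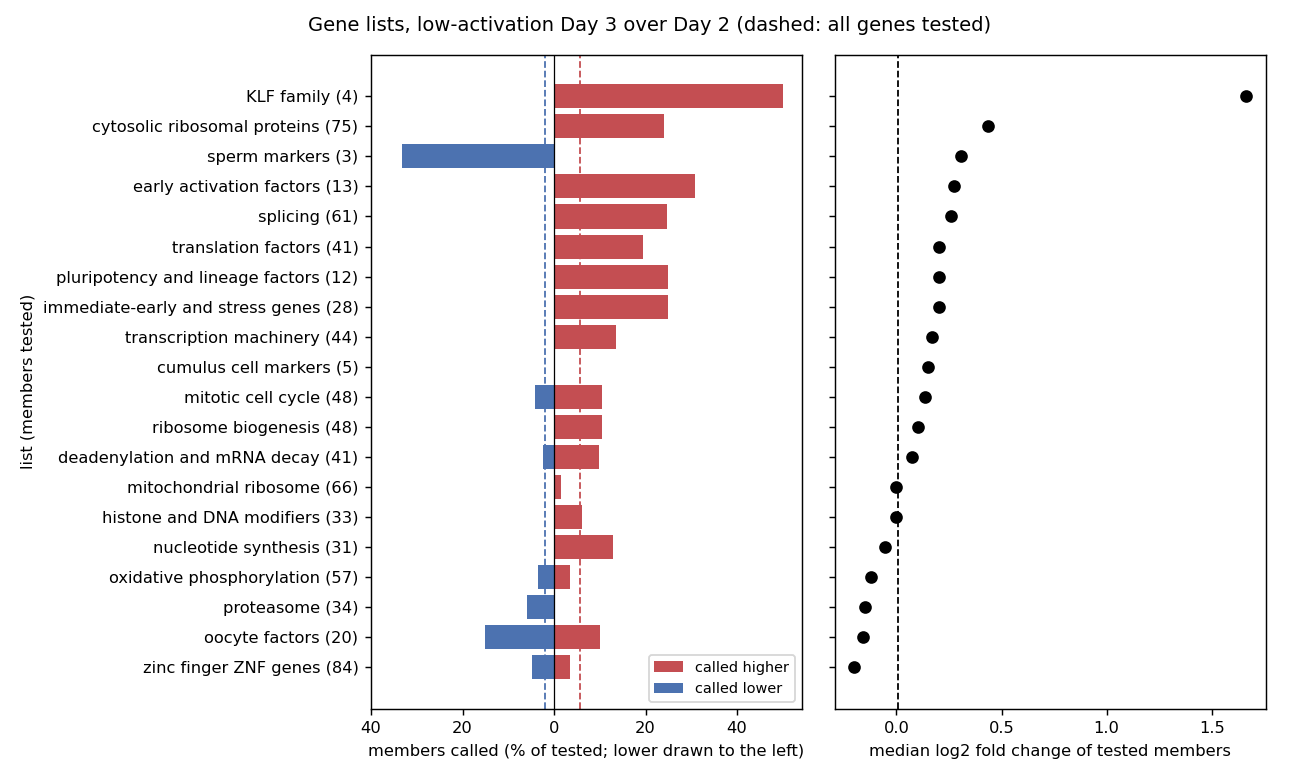
Left, the percent of tested members of each list called higher (red, to the right) or lower (blue, to the left), with the number tested in brackets; right, the median log2 fold change of the tested members; dashed lines give the values over all genes tested (5.59% higher, 1.98% lower, median 0.01). Splicing, transcription, translation factor, ribosome biogenesis and cytosolic ribosomal protein lists lie to the right of the dashed lines with 0 members called lower. So do the KLF, pluripotency and lineage, early activation and immediate-early lists. In fits of Day3-E1, Day3-E3 and Day3-E5 alone, the immediate-early median was -0.014, -0.025 and 0.18. That of pluripotency and lineage factors was 0.17, 0.021 and -0.046, and that of all genes -0.026, -0.050 and -0.057. The KLF and early activation medians were positive in each embryo. ZNF genes, oocyte factors and the proteasome have the lowest medians. With ERCC library sizes every median moves down by about the 0.30 of all genes, and that of the histone and DNA modifiers changes side of the all-gene median.

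Regulators were few among the tested genes but included large rises. Of 12 pluripotency and lineage factors that passed the filter, of 26 in the table, 3 were called higher (25%) and 0 lower, KLF4 and TFAP2C among them. Among all genes tested, 5.59% were called higher and 1.98% lower. Only 4 of the 11 KLF genes in the table passed the filter, and of these KLF4 and KLF10 rose. A gene low on Day 2, such as KLF10, can pass the filter through the low-activation embryos. The share of KLF genes called therefore cannot be read as a result about the family. KLF10, an immediate target of TGF-beta signals, had 25.0, 120 and 59.8 CPM against 4.57 to 10.87 (3.06, standard error 0.43, adjusted p = 0.000154), and the other Day 3 embryos had 233 to 482. Of 13 early activation factors, 4 were called higher (30.8%) and 0 lower, KLF4, ATF1 and NFYA among them. ATF1, a CREB-family activator, had 167, 474 and 421 CPM against 94.0 to 125 (1.81, standard error 0.25, adjusted p = 0.000268). NFYA, the regulatory subunit of the CCAAT-binding factor NF-Y, had 14.995, 118 and 36.4 CPM against 4.56 to 23.5 (2.22, standard error 0.55, adjusted p = 0.021), with Day3-E1 inside the Day 2 range.

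Of 28 immediate-early and stress genes, 7 were called higher (25%) and 0 lower (median log2 fold change 0.20). The shares among all genes tested were 5.59% and 1.98%. DUSP1, a phosphatase of MAP kinases, had 48.3, 202 and 122 CPM in Day3-E1, Day3-E3 and Day3-E5 against 12.8 to 22.8 on Day 2 (2.94, standard error 0.36, adjusted p = 3.5e-05). BTG1, an antiproliferative factor, had 38.3, 160 and 177 CPM against 27.8 to 42.4, so that Day3-E1 overlapped Day 2. The chaperone partner DNAJB1 (0.79) and the stress factor DDIT3 (0.61) rose by less, and both calls were lost with ERCC library sizes. The list's summed level was 6791 CPM in Day3-E1, below the Day 2 range of 7102 to 8634, 8704 in Day3-E3, above it, and 7772 in Day3-E5, inside it.

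Most oocyte factors were not called. Of 20 tested, 2 were called higher (10%), 3 lower (15%) and 15 neither, with a median of -0.16 on the log2 scale. Over all genes tested the shares were 5.59% higher and 1.98% lower. Besides DDX4, ZAR1, a maternal-effect RNA-binding protein, fell, with 155 CPM in Day3-E1, 113 in Day3-E3 and 182 in Day3-E5 against 228 to 339 (median 252) on Day 2 (-0.74, standard error 0.18, adjusted p = 0.0132). DPPA3, the maternal factor STELLA, was higher instead, with 3900, 3760 and 4169 CPM against 2347 to 3374 (0.61, standard error 0.12, adjusted p = 0.00378), and its call was lost with ERCC library sizes. FBXW12 rose as well, at 30.0 to 44.2 CPM against 0 to 17.1 (1.69, adjusted p = 0.0138), with its call also lost there. Summed over the list, the 3 embryos had 17004 to 17580 CPM, just under the Day 2 range of 17726 to 20747, while the other Day 3 embryos had 5107.5 to 15317. A single member can carry such a gap. OOSP1 had 1033 CPM in Day3-E1 against 2231 to 4242 on Day 2, and it was not called over the 3 embryos (log2 fold change -1.08).

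Of 41 genes of deadenylation and mRNA decay, 4 were called higher (9.76%) and 1 lower (2.44%), which was DGCR8 (median log2 fold change 0.07). Among all genes tested the shares were 5.59% and 1.98%. Whether this list or the next differs from these shares was not tested. TOB2, an adaptor of the deadenylase, and YTHDF2, a reader of methylated mRNA, rose with log2 fold changes of 1.35 and 1.42, and YTHDF2 overlapped Day 2 through Day3-E1 (39.99 CPM against 31.7 to 43.5). Of 48 mitotic cell cycle genes, 5 were called higher and 2 lower. CKS2, a subunit of cyclin-dependent kinases, had 3279 CPM in Day3-E1, inside the Day 2 range of 2278 to 3598, and 5072 and 6041 in Day3-E3 and Day3-E5 (0.91, standard error 0.18, adjusted p = 0.00408). CENPF, a large kinetochore protein, fell in all 3, with 2258, 2632 and 1518 CPM against 3361 to 4935 (-0.78, standard error 0.17, adjusted p = 0.00635). CCNE1 and AURKC rose with log2 fold changes of 1.77 and 0.57.

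Most genes of metabolism, protein turnover and chromatin were not called. Over all genes tested, 5.59% were called higher and 1.98% lower. The shares were 3.51% and 3.51% for oxidative phosphorylation, 0% and 5.88% for the proteasome and 12.9% and 0% for nucleotide synthesis. They were 6.06% and 0% for the histone and DNA modifiers and 3.57% and 4.76% for the ZNF genes. Of 57 oxidative phosphorylation genes, 2 were called higher and 2 lower (median log2 fold change -0.12). UQCR10 and NDUFA2 rose (1.34 and 0.97), and COX7A2 and NDUFA6 fell (-1.15 and -1.01), COX7A2 to 33.3, 26.2 and 36.4 CPM against 63.0 to 94.0 on Day 2. Of 34 proteasome genes, 0 were called higher and 2 lower, PSMD1 (-0.67, adjusted p = 0.00919) and PSMB3 (-0.90, adjusted p = 0.0368), and the list's summed level of 5066 to 5840 CPM lay below the Day 2 range of 6475 to 6936 in all 3 embryos. Of 31 nucleotide synthesis genes, 4 were called higher and 0 lower although the median was -0.06. They were PRPS1, PPAT, GART and PNP, enzymes of purine synthesis and salvage, with log2 fold changes of 1.41 to 2.26, and Day3-E1 overlapped Day 2 for GART and PNP. Of 33 histone and DNA modifiers, BRDT, a bromodomain protein of the testis (2.805, adjusted p = 0.000175), and CBX5 (0.62, adjusted p = 0.0329) were called higher and 0 lower. Of 84 ZNF genes, 3 were called higher and 4 lower (median -0.20), with ZNF131 (2.72) and ZNF75A (-0.96) as examples.

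Few markers of other cells that a well might hold passed the filter, and no rise was called among them. Since 5.59% of all genes tested were called higher, the lack of a called rise among so few genes shows little about other cells. Of 17 cumulus cell markers in the table, 13 had a UMI in a Day 2 embryo and 16 in a low-activation embryo, 5 passed the filter and 0 were called, with DCN at 0 in both groups and VIM, INHA and COL3A1 at 0 in the Day 2 embryos. Added up, they made 466 to 590 CPM in the low-activation and 521 to 638 CPM in the Day 2 embryos, and most of it was HAS2 and STAR. Of 8 sperm markers, 3 passed the filter and 1 was called, LDHC, which was lower (-0.79, adjusted p = 0.0376), and the summed level was 147 to 153 CPM against 137 to 187. ODF1 and SMCP were at 0 in both groups.

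Day3-E1 was the embryo whose 20-gene level lay inside the Day 2 range. Fitted alone against the 6 Day 2 embryos, with its spread taken to be like theirs since it is 1 embryo, it gave 35 genes higher and 8 lower of 6520 tested (0.537% and 0.123%). Day3-E3 alone gave 492 higher (7.39%) and 79 lower (1.19%) of 6661, and Day3-E5 alone 515 higher (7.69%) and 439 lower (6.56%) of 6697. Of the 15 largest rises, CKMT2, SUPT4H1, LOC511494, ZNF296, RSRP1, SNAI1, SRSF3, TRA2B, SLC2A3 and HNRNPAB were called in Day3-E1 alone, an embryo that took part in choosing them. Their log2 fold changes there ran from 3.698 for CKMT2 and 3.49 for SUPT4H1 down to 1.39 for HNRNPAB. KLF4 (1.23, adjusted p = 0.00337), RPSA (0.85, adjusted p = 0.00306) and TAF1D (2.62, adjusted p = 6.59e-05) were called as well by edgeR's test. Among the 8 genes lower in Day3-E1 were NADK2 (-2.82, adjusted p = 0.00546) and CENPF (-0.76, adjusted p = 0.0482).

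The number of cells above the highest Day 2 embryo differed between genes. Among cells with 10000 or more gene UMI, SUPT4H1 exceeded the highest Day 2 embryo in 39 of 39 low-activation cells and in 7 of 37 Day 2 cells, and TRA2B did so in 38 of 39 and 13 of 37. Of the 15 largest rises GLRX2 and IL18 did so least often, each in 21 of 39 low-activation cells, against 4 and 9 of 37 Day 2 cells. GLRX2 was at 0 in 8 of 13 cells of Day3-E1, CKMT2 exceeded the highest Day 2 embryo in 6 of 13 cells of Day3-E3, and ANKRD50 in 6 of 13 cells of Day3-E1. For GLRX2, IL18, CKMT2 and ANKRD50, every low-activation cell with a UMI exceeded the highest Day 2 embryo. Their counts therefore give detection, which depends on depth and level, and cannot be set against those of abundant genes such as SUPT4H1. KLF4 exceeded its highest Day 2 embryo in 7 of 13 cells of Day3-E1, in all 13 cells of each of the others, and in 14 of 37 Day 2 cells. Its level in Day3-E1 cells ran from 0 to 423 CPM with a median of 211, in Day3-E3 cells from 171 to 2025 with a median of 1068, and in Day3-E5 cells from 237 to 2410 with a median of 667.5. With each cell thinned to 10000 gene UMI, KLF4 had a UMI in 8 of 13 cells of Day3-E1 and 22 of 37 Day 2 cells, and in all cells of Day3-E3 and Day3-E5. Before thinning it had one in 13 of 14 cells of Day3-E1 and 40 of 43 Day 2 cells. NADK2 moved the other way, with a UMI in 8 of 39 thinned low-activation cells against 30 of 37 thinned Day 2 cells, and in 21 of 47 and 40 of 43 cells before thinning. DDX4 had a UMI in 1 of 39 and 11 of 37 thinned cells, and in 5 of 47 and 34 of 43 before. Thinning left out 8 low-activation and 6 Day 2 cells that were shallower.

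In Day3-E3, 2 cells of the 13 stood below the rest. They were singled out after their values were seen. Their TRA2B levels were 254 and 456 CPM, against 2863 to 6034 in the other 11 cells. The same 2 cells were the lowest for KLF4, with 212 and 171 CPM against 836 to 2025, and for SUPT4H1, with 127 and 456 CPM against 696 to 1709. They held 23583 and 17536 gene UMI, within the 15744 to 47989 of the other cells.

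**Figure D5:**
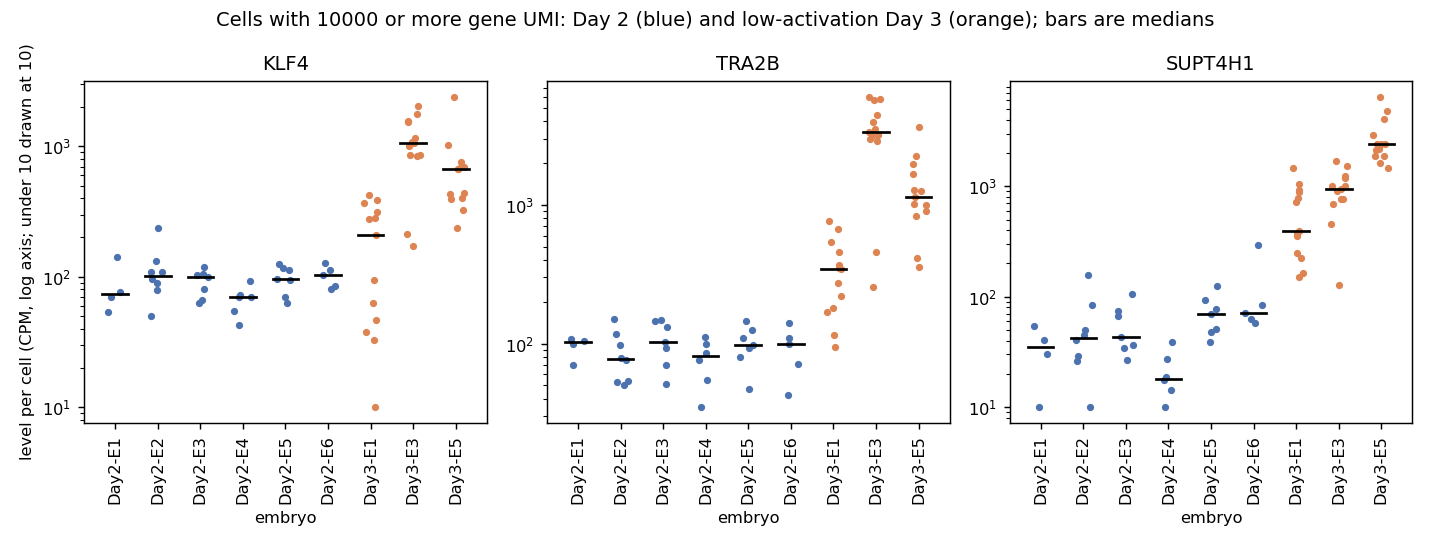
Each point is a cell with 10000 or more gene UMI, with its level of KLF4, TRA2B or SUPT4H1 in CPM (log axis), by embryo; bars are medians over cells. Cells of Day3-E1 spread from the Day 2 level upward for KLF4 (median 211 CPM), and 2 cells of Day3-E3 lie below the other 11 in all 3 panels.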

How the data were processed

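The authors mapped SCRB-Seq reads to Bos tau7 and the ERCC spike-ins with STAR 2.5.2b, and made UMI tables with the Drop-seq pipeline. The deposited table of UMI counts (10772 genes, 92 spike-ins, 170 cells) was used, and the normalised table was not. Cells with 2000 or more UMI were summed per embryo, the replicate, and 9 cells were left out. The members and lists were chosen with earlier results of these data known.

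Counts were tested with edgeR 4.0.16 (R 4.3.3; TMM, filterByExpr, robust quasi-likelihood F-test, Benjamini-Hochberg adjusted p under 0.05) on the low-activation Day 3 and Day 2 embryos, and in a fit of its own on the other Day 3 and Day 2 embryos, which shares the Day 2 embryos with the former. The test was checked on simulated data, in which a gene had the same dispersion in both groups. The check therefore does not cover genes that spread more among the low-activation embryos, such as TRA2B (standard deviation 1616 CPM, against 10.7 on Day 2). Fold changes are edgeR's log2 values, and standard errors come from the F statistic. Per-embryo measures were compared by exact permutation over the 84 splits (scipy 1.17.1). Nothing states that embryos came from separate parents or cultures, so p-values measure the spread between these embryos.

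Genes were named by a rule: among called genes without overlap between the groups and with a mean of 20 CPM or more in the higher group, the 15 largest rises and the 10 largest falls, with KLF4, and up to 4 called members of each list by lowest p, or the 2 most abundant where 0 were called. Alternatives were DESeq2 1.42.0, library size without TMM, ERCC library size, no filter, cells with 5000 or more UMI, thinning to 10000 gene UMI, plate 3 only, single embryos and leaving embryos out. Fits of Day3-E3 or Day3-E5 alone and the removal of 1 cell were chosen after seeing the data. Total depth per embryo bounds precision, and 1 UMI equals 1.09 to 3.39 CPM over the 14 embryos. Promoter sequences were not used here. Values of some genes that the rule names are not reported here.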

Additional observations from a re-analysis of the deposited data

Results flagged for a closer look

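In groups of 4 to 10 embryos, the highest or lowest value was compared with the rest by the gap to its nearest neighbour over the group's range, against Dixon's 95% critical value. The groups were the Day 2 and the other Day 3 embryos, and the values were KLF4, the 15 largest rises, the 10 largest falls and 3 measures of the embryos. Of 58 groups of values, 4 had such an embryo, and chance gives about 1 in 20. KLF4 was 68.5 CPM in Day2-E4, with the other Day 2 embryos at 89.7 to 99.8, and HNRNPAB was 21.8 CPM in Day2-E5, with the others at 29.3 to 32.1. Both lie on the side away from the low-activation embryos. RPF2 was 85.0 CPM in Day3-E8, with the other 4 embryos at 13.15 to 30.5. Gene UMI per ERCC UMI was 67.3 in Day3-E2, with the other 4 at 32.6 to 39.0.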

How the results depend on the processing

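The count of 448 called genes became 706 without the filter on low counts, 114 of 2079 tested genes with cells thinned to 10000 gene UMI, 892 on plate 3 only (Day3-E5 against Day2-E1 to Day2-E4), 43 for Day3-E1 alone and 954 for Day3-E5 alone. Leaving out single embryos gave 251 to 731, the lowest without Day3-E5 and the highest without Day3-E1. It was 526 with DESeq2 (372 higher, 154 lower), 510 without TMM and 333 with ERCC library size, and 446, 391 and 255 of the 448 genes were called there. Of all calls 73.9% were rises, against 53.9% without TMM, 46.3% with ERCC library size, 53.5% on plate 3 only and 60.5% without Day3-E3. The cause was not tested. The difference in UMI per cell ran from -54436 to -39460 without single embryos, with exact p up to 0.0714 where a low-activation embryo was left out. The log2 difference in gene UMI per ERCC UMI ran from -0.385 to 0.0202, and was above 0 without Day3-E5. For the other Day 3 embryos, the count ran from 2593 to 3166 without single embryos. Over 81 named genes and their alternatives, 1562 values were computed, of which 1347 kept direction and side of the threshold, 212 no longer passed it, 61 of them in Day3-E1 alone, and 2 reversed, both in Day3-E1 alone, NDUFA2 to -0.11 and PNP to -0.18. Shallow cells limit what can be seen for genes below a few CPM. No paired analysis was possible because the Day 2 and Day 3 embryos are different individuals and share no replicate.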

Other observations

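Among the 331 genes called higher, the mean of the other 5 Day 3 embryos exceeded that of the low-activation embryos for 266, and for 65 it did not. This split compares groups that the rule made and was not tested. Named genes of the smaller set were LOC511494 with means of 921 CPM in the low-activation and 744 CPM in the other Day 3 embryos, SNAI1 with 318 and 233, PABPC4 with 846 and 615, AURKC with 521 and 431, CKMT2 with 57.9 and 42.8 and DPPA3 with 3943 and 2892. Among the 117 genes called lower, the mean of the other Day 3 embryos was lower still for 97 and not for 20, and COX7A2, PSMB3, DDX4 and RPF2 were among the 20.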
